A study of Mus musculus with 4 samples.

Results

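The dentate granule layer spots were 102 capture spots of 10x Genomics Visium sections, chosen from 9676 spots by the share of their RNA that came from 4 genes of dentate granule cells, C1ql2, Dsp, Fam163b and Prox1. In each section, spots with at least 500 UMIs (unique molecular identifiers, each standing for 1 captured RNA molecule) were kept, and the UMIs of the 4 genes were summed and divided by the UMIs of the spot. Members were the spots in the top 3% of this score that also held at least 2 UMIs of C1ql2, Dsp and Fam163b together. They numbered 35 of 2601 kept spots in Trained 1, 22 of 2829 in Trained 2, 15 of 1821 in Untrained 1 and 30 of 2425 in Untrained 2. A further 186 spots reached the top 3% but fell short of 2 marker UMIs. A spot is a small disc of tissue that can hold several cells of different types, so a level is that of a patch of tissue and not of a cell type.

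The sections came from 4 male ArcCreERT2::eYFPflx mice aged 3 to 4 months, 1 coronal section of 10 µm per mouse, collected 3 days after a memory retention test. The 2 trained mice had learned to avoid a shock zone on a rotating arena, and the 2 untrained mice had the same sessions without shock. All 4 mice, the untrained ones included, received 4-hydroxytamoxifen before the retention test, which lets Cre recombinase under the Arc promoter switch on eYFP for good in cells that express Arc, so the tag depends on the activity of that promoter. The question asked was which genes differ in the hippocampus while a memory is stored. With 2 mice per group, the exact permutation test over sections cannot go below p = 0.3333.

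Granule cells are the principal neurons of the dentate gyrus. Their small somata are packed into a thin curved layer, their dendrites receive the input from the entorhinal cortex, and their axons, the mossy fibers, carry it to CA3. Prox1 is the transcription factor that sets granule cell identity. C1ql2 is a secreted protein of mossy fiber synapses that binds presynaptic neurexin and postsynaptic kainate receptors, and Dsp encodes desmoplakin, a protein of desmosomes that in the hippocampus marks granule cells.

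Read from the GENCODE vM21 annotation of the mm10 (GRCm38) genome, C1ql2 lies on the plus strand at chr1:120340582-120343174, Prox1 on the minus strand at chr1:190118035-190170714, Fam163b on the minus strand at chr2:27110380-27142491 and Dsp on the plus strand at chr13:38151294-38198577. The sequence shown here is that of Bc1, a short noncoding RNA that neurons carry into their dendrites, because it was the gene with the most UMIs among those named as lower in the member spots. It lies on the plus strand at chr7:144914470-144914637 and the annotated transcript has 168 bases. The capitals mark its longest run of A, 23 bases from position 77 to position 99 counted from the 5′ end.
Bc1: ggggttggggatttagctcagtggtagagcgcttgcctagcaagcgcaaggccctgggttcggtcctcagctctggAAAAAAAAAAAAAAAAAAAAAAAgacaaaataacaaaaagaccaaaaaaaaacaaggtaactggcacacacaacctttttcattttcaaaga

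Depth differed between sections. The whole sections held 3560294 UMIs (Untrained 1) to 10330015 UMIs (Trained 2), and the member spots held 114572 in Trained 1, 55472 in Trained 2, 29787 in Untrained 1 and 116623 in Untrained 2. The median member spot had 2431, 2362, 1795 and 3618 UMIs in that order of sections, against 2141.5, 2735, 1342 and 2029 in the other spots. Untrained 1 was the shallowest section and had the fewest members, so a level in its members rested on the fewest molecules. Spot barcodes were shared by the sections because a barcode names a position on the array and not a cell.

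**Figure D1:**
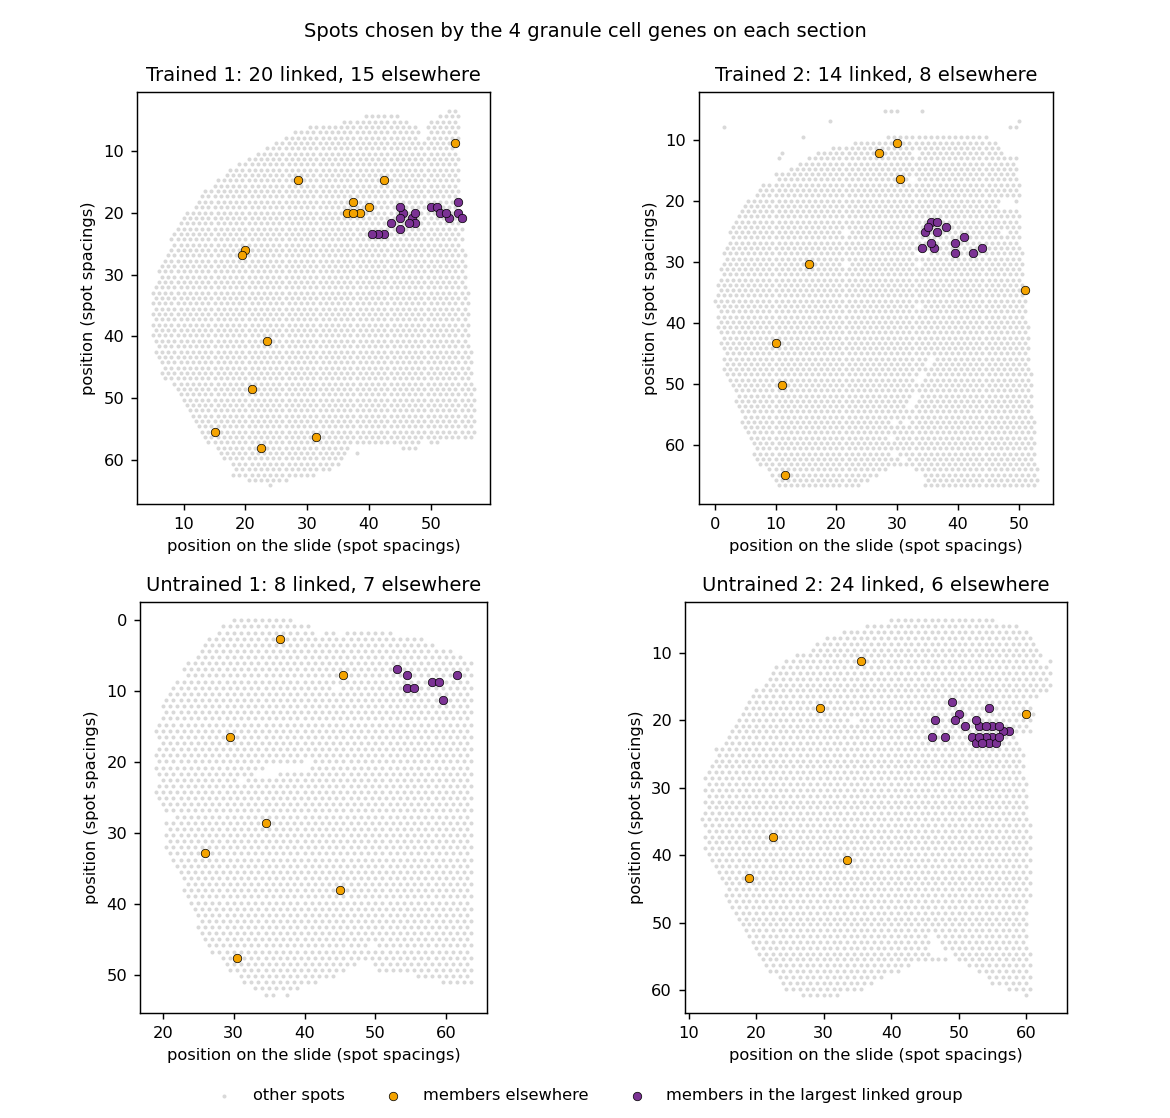
Position of the member spots on each section, in spot spacings on both axes. Purple points are members of the largest linked group, orange points are the other members and grey points are the other kept spots. The purple groups hold 20, 14, 8 and 24 spots, while most orange points are scattered over the rest of the section.

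The label was checked against position, which the rule did not use. Of the members, 62.9% in Trained 1, 27.3% in Trained 2, 26.7% in Untrained 1 and 60.0% in Untrained 2 touched another member, whereas 3.10% to 4.44% of the other spots touched a member. When members with at most 3 steps between them were linked, the largest group held 20, 14, 8 and 24 members, 66 in all, and spanned 6 to 8 rows of the array. The group is called the band here, and its being 1 group follows from how it was built. Of the other 36 members, 5 in Trained 1 formed a second group, and in the other 3 sections each lay apart from every other member by more than 3 steps.

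Fam163b was the only marker found in 18 of the 36 members outside the band (5 of 15, 7 of 8, 5 of 7 and 1 of 6 by section), against 5 of the 66 in the band, and 3 or 4 of the marker genes were found together in 4 of the 36 against 31 of the 66. Levels here are UMIs of the gene per 10000 UMIs of the spots summed, always with the trained sections first. Bc1 was at 167, 295, 425 and 373 outside the band, against 64.0, 55.6, 256 and 89.7 in the band, higher in 4 of 4 sections. Snap25, a protein of the presynaptic fusion machinery, was likewise higher outside the band in each section, at 23.4, 31.1, 29.0 and 32.1 against 18.8, 14.2, 14.1 and 19.1. Adcy1, a calmodulin-stimulated adenylyl cyclase, was at 5.91, 3.11, 2.48 and 5.78 outside and at 12.2, 11.9, 13.6 and 13.6 inside. The 40 other granule cell genes described below summed to 64.5, 42.3, 42.2 and 38.6 outside the band and to 93.2, 59.9, 84.7 and 87.6 inside. The spots that were not members were at 34.9, 28.7, 38.5 and 37.9. Outside the band the sum was above them in the trained sections. It was close to them in Untrained 1 and Untrained 2, where it rested on 12078 and 15564 UMIs of all genes. Values below are given for all 102 members, with those of the band beside them where it lies on the other side of the other spots in any section. The paragraphs on distance and on spots chosen by CA1 genes use the band, and name all members where their values are given.

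The 4 marker genes chose the members, so their levels are a description without a test. Fam163b was at 7.68, 7.21, 8.06 and 6.52 in the members, in the order of sections used above, against 0.719, 0.518, 0.859 and 0.781 in the other spots. It supplied most of the marker UMIs, 228 in all, and was present in 95 of 102 members. C1ql2 was at 2.97, 1.44, 2.35 and 1.37 against 0.0982, 0.0754, 0.0951 and 0.0861, and was found in 47 members. Dsp was at 1.75, 1.26, 1.01 and 2.40 against 0.0534, 0.0558, 0.0565 and 0.116, in 35 members. Prox1, which counted in the score but not in the minimum of 2 UMIs, was at 1.66, 1.26, 2.01 and 2.66 against 0.211, 0.219, 0.187 and 0.185, in 43 members. All 4 genes were found together in 9 members and 1 gene alone in 28, so that most members were called from a handful of molecules. At the edge of the rule the lowest members scored 9.93, 7.42, 10.7 and 9.85 marker UMIs per 10000 and the first spots below them 9.85, 7.29, 9.03 and 9.66.

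When each marker in turn was left out of the rule, the left-out gene was measured in spots that it had not chosen, and it was found there in each section for C1ql2 and Prox1. C1ql2 then had 13, 3, 1 and 9 UMIs in those spots, and was 11.7-fold above the other spots in Trained 1 and 8.39-fold in Untrained 2. Prox1 had 12, 5, 1 and 15 UMIs and was 5.08-, 3.11- and 4.99-fold above them in Trained 1, Trained 2 and Untrained 2. Dsp had 11, 2, 0 and 9 UMIs, 17.1-fold above them in Trained 1 and 6.63-fold in Untrained 2. Fam163b had 35, 6, 0 and 27 UMIs and was 6.66-, 3.04- and 4.64-fold above them outside Untrained 1. No ratio is given for 3 or fewer UMIs, and Untrained 1 had too few molecules for any.

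Genes of granule cells that the rule did not use were higher in the members in each section. The list held 40 genes and its summed level was 83.4, 54.8, 67.5 and 81.0 UMIs per 10000 in the members against 34.9, 28.7, 38.5 and 37.9 in the other spots, a mean log2 ratio of 1.02 ± 0.19 (SD, n = 4 sections). Of its 33 genes with at least 10 member UMIs, 22 were higher in 4 of 4 sections and 1 was lower. Among all 6161 genes with that many, 12.8% were higher and 9.61% lower in 4 of 4 sections. As the members were chosen from these same spots, these counts carry no test.

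Dgkh, a diacylglycerol kinase, had 1.92, 1.98, 1.68 and 2.23 UMIs per 10000 in the members against 0.472, 0.471, 0.529 and 0.462, a 4.02-fold mean ratio. The ranges of members and other spots did not overlap for this gene. Neurod2, Bcl11b and Stxbp6 were picked from the list after their values were seen. Neurod2, a basic helix-loop-helix factor of maturing excitatory neurons, was at 1.66, 1.44, 1.34 and 2.49 against 0.517, 0.374, 0.547 and 0.630. Bcl11b, a zinc finger factor that granule cells need to mature, was at 1.13, 1.44, 1.68 and 1.80 against 0.465, 0.361, 0.505 and 0.446. Stxbp6, which binds SNARE proteins, was at 2.44, 1.62, 2.35 and 1.89 against 0.627, 0.567, 0.657 and 0.650. All of these separated the members from the other spots in each section, by 2.44-fold or more.

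The genes of the list with the most UMIs differed less. Fam131a was at 4.71, 3.79, 4.70 and 6.17 in the members against 1.78, 1.501, 2.15 and 2.09. Ppp1r1a, an inhibitor of protein phosphatase 1, was at 5.32, 3.79, 3.36 and 5.06 against 1.91, 1.74, 1.81 and 1.96, and Icam5, an adhesion protein of forebrain dendrites, was at 4.01, 1.98, 4.03 and 3.77 against 1.12, 0.9501, 1.33 and 1.44. Nrgn, which binds calmodulin in dendritic spines, was at 27.5, 16.9, 20.1 and 23.9 against 14.5, 10.4, 15.8 and 16.5. Calb1, a calcium buffer of mature granule cells, was higher in 3 sections and lower in Trained 2, at 2.97, 1.26, 2.35 and 2.06 against 1.70, 1.49, 1.70 and 1.63. In the band alone Calb1 was at 3.04, 1.78, 3.39 and 2.18, above the other spots in 4 of 4 sections.

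**Figure D2:**
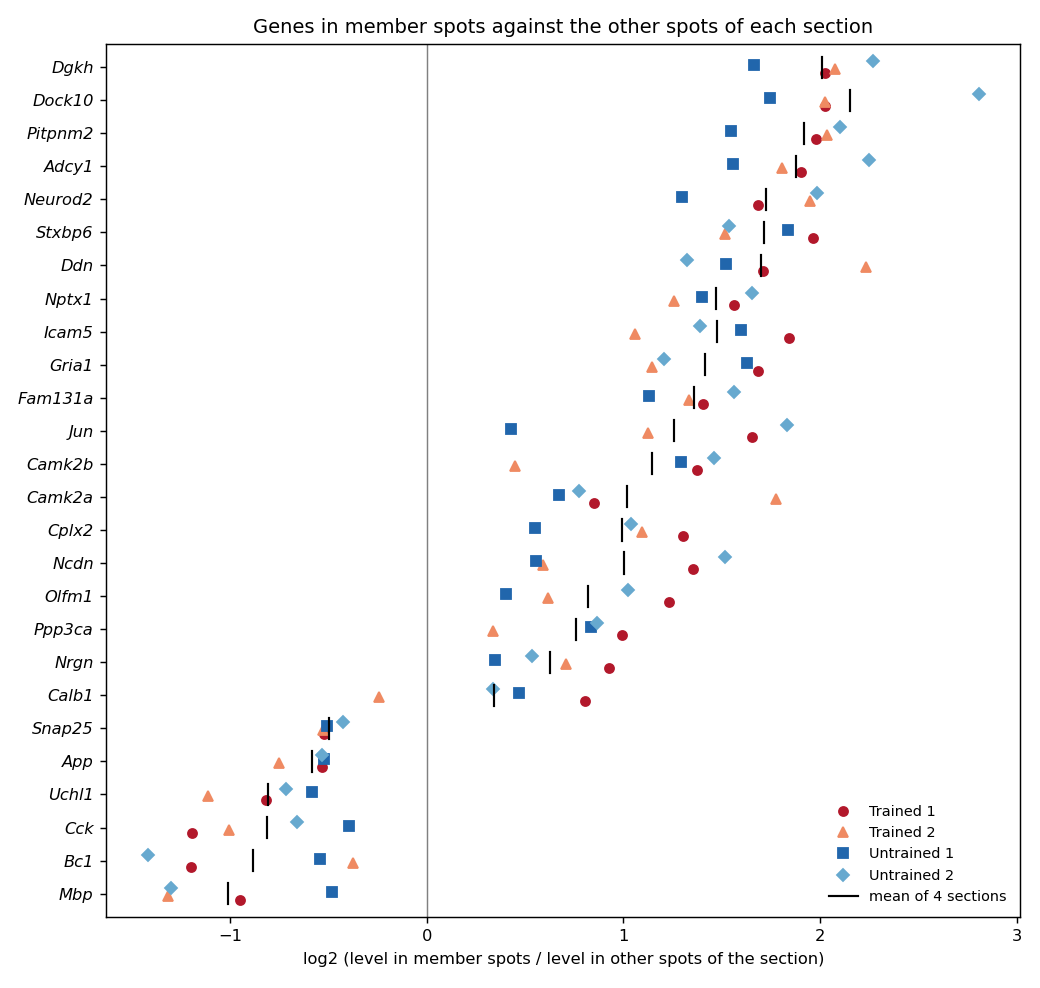
Log2 ratio of the level in member spots to that in the other spots of the same section, on the x axis, for 26 named genes. Symbols are the 4 sections and black bars their mean. Dgkh to Nrgn lie right of 0 in each section, Calb1 crosses 0, and Snap25 to Mbp lie left of 0 in each section.

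Of the genes with at least 20 member UMIs in every section, 156 in all, 33 were higher and 34 lower than in the other spots in 4 of 4 sections. With the 4 marker genes left out, the gene with the highest ratio in the section where it was weakest was Adcy1, at 10.0, 9.37, 9.06 and 12.5 UMIs per 10000 against 2.68, 2.68, 3.09 and 2.63, or 3.68-fold on average. Next was Ddn, which encodes dendrin, a postsynaptic protein whose mRNA is carried into dendrites, at 9.60, 11.9, 11.4 and 10.5 against 2.93, 2.53, 3.97 and 4.22. Gria1, a subunit of AMPA-type glutamate receptors, followed at 6.11, 3.61, 7.05 and 4.63 against 1.90, 1.63, 2.28 and 2.01. In the band alone the mean log2 ratio was 2.21 against 1.88 in all members for Adcy1, and 1.71 against 1.42 for Gria1.

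Camk2a and Camk2b, the subunits of calcium/calmodulin-dependent kinase II, had mean ratios of 2.02-fold and 2.21-fold. Camk2a was at 8.03, 10.8, 8.39 and 9.78 against 4.46, 3.16, 5.27 and 5.71, and Camk2b at 11.3, 5.77, 11.4 and 12.3 against 4.38, 4.22, 4.66 and 4.45. Ppp3ca, the catalytic subunit of calcineurin, Hpca, the calcium sensor hippocalcin, and Ncdn, neurochondrin, had mean ratios of 1.69-, 1.59- and 2.00-fold. Ncdn was at 29.3, 18.0, 19.1 and 36.4 against 11.5, 11.97, 13.01 and 12.8. The remaining genes of this ranking were Olfm1, Nckap1, Mrfap1, Nrgn, Ptms, Eef1a1 and Rps9, with mean ratios of 1.76-, 1.60-, 1.66-, 1.55-, 1.31-, 1.33- and 1.41-fold.

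Genes with fewer UMIs reached higher ratios, and 4 are named here that were chosen after their values were seen. Pcdh20, a protocadherin, was at 1.31, 1.08, 2.01 and 1.97 in the members against 0.218, 0.196, 0.276 and 0.222, or 6.80-fold on average. Kctd4, Bhlhe22, a helix-loop-helix factor, and Wipf3, a protein of the actin cytoskeleton, were 5.44-, 4.57- and 4.18-fold higher. Between them the 4 genes rested on 47 to 173 member UMIs each.

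Postsynaptic genes as a list were higher and presynaptic genes lower. The postsynaptic density list of 32 genes summed to 82.0, 73.2, 82.3 and 90.4 UMIs per 10000 in the members against 47.8, 42.9, 54.1 and 53.6, a mean log2 ratio of 0.73 ± 0.08 (SD, n = 4). Of its 28 genes with at least 10 member UMIs, 11 were higher and none was lower in 4 of 4 sections, against 12.8% and 9.61% of all genes. The glutamate receptor list of 24 genes had a mean log2 ratio of 0.46 ± 0.13. Its members did not act alike, since Gria2 and the NMDA receptor subunit gene Grin2a were higher in 4 of 4 sections, by 1.62- and 1.61-fold on average, whereas Grin1, the NMDA receptor subunit found in every such receptor, was at 3.14, 3.43, 2.69 and 4.12 against 3.36, 3.46, 3.58 and 3.25.

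The synaptic vesicle list of 35 genes summed to 148, 121, 146 and 149 in the members against 166, 163, 175 and 168, a mean log2 ratio of -0.26 ± 0.12, and 11 of its 32 genes with at least 10 member UMIs were lower in 4 of 4 sections while 4 were higher (34.4% and 12.5%, against 9.61% and 12.8% of all genes). Snap25 was at 20.3, 19.1, 20.1 and 20.8 against 29.2, 27.6, 28.6 and 28.0, a log2 ratio of -0.50 ± 0.05 (SD, n = 4). The complexins, which clamp vesicle fusion, split. Cplx2 was 1.99-fold higher on average, at 6.28, 3.43, 5.71 and 6.09 against 2.55, 1.61, 3.90 and 2.97, and Cplx1 was at 4.01, 3.06, 5.71 and 4.63 against 7.06, 7.95, 6.51 and 6.49. Slc17a7, the vesicular glutamate transporter of cortical and hippocampal neurons, was at 6.63, 4.33, 5.71 and 7.37 against 4.97, 3.93, 6.45 and 6.11, and at 6.21, 3.30, 5.08 and 7.52 in the band alone, higher in 2 sections and lower in 2.

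The genes of the mossy fiber and secreted list, 28 in all, did not share a direction, with a mean log2 ratio of -0.04 ± 0.13. Of its 22 genes with at least 10 member UMIs, 6 were higher and 6 lower in 4 of 4 sections (27.3% each way, against 12.8% and 9.61% of all genes). In the band alone the list summed to 54.3, 37.6, 58.7 and 57.6 against 57.1, 50.4, 61.3 and 60.8, lower in 4 of 4 sections. Nptx1, a secreted pentraxin that gathers AMPA receptors, was 2.77-fold higher on average, at 4.28, 3.06, 5.04 and 5.32 against 1.45, 1.28, 1.91 and 1.69. Grm2, a presynaptic glutamate receptor of mossy fibers chosen after its values were seen, was at 1.75, 0.721, 1.01 and 1.46 against 0.362, 0.250, 0.398 and 0.283. Cck, a neuropeptide of interneurons and of pyramidal cells, was lower, at 3.75, 3.61, 6.04 and 5.57 against 8.58, 7.22, 7.95 and 8.81.

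**Figure D3:**
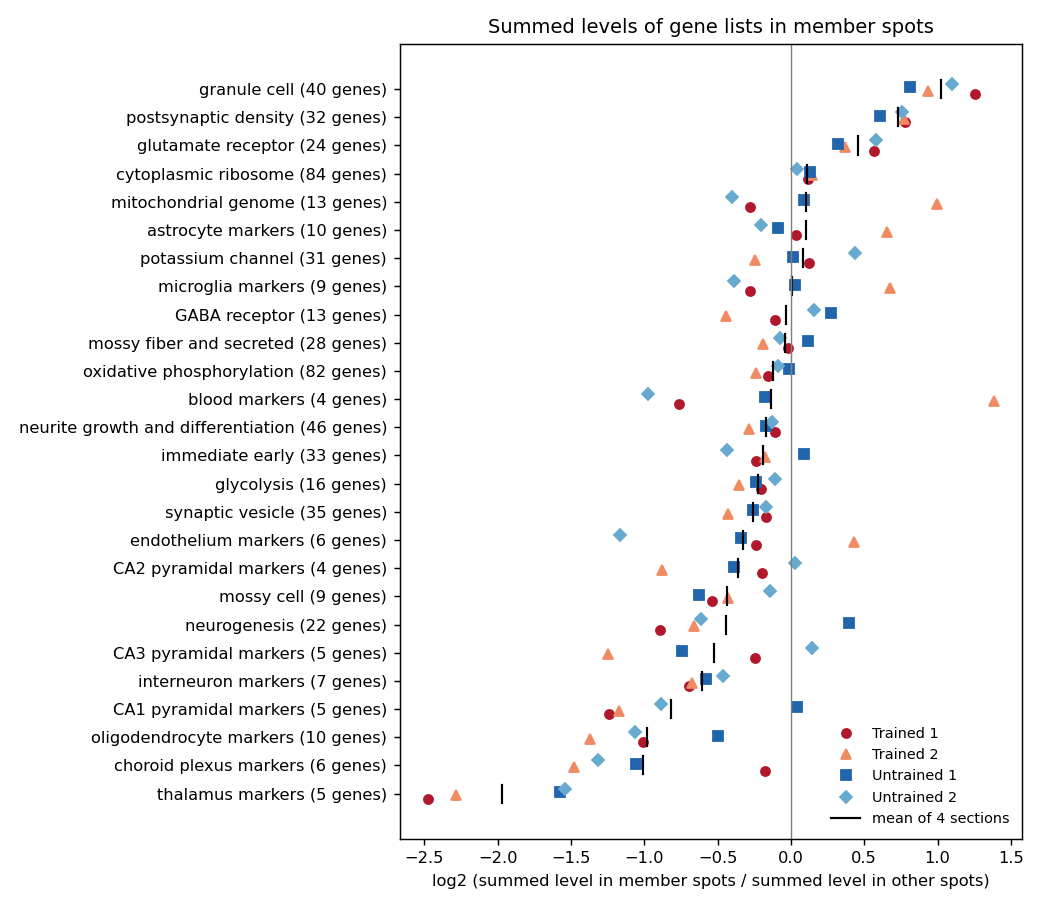
Log2 ratio of the summed level of each gene list in member spots to that in the other spots of the section, on the x axis, with the number of genes in each list. Symbols are sections and black bars their mean, from 1.02 for the granule cell list at the top to -1.97 for the thalamus markers at the bottom.

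Among the genes lower in the members, Bc1 held the most UMIs, 4278 in all. It was at 98.9, 125, 324 and 128 UMIs per 10000 in the members against 227, 162, 473 and 340 in the other spots, and at 64.0, 55.6, 256 and 89.7 in the band. The mean log2 ratio was -0.88 ± 0.50 (SD, n = 4) for all members and -1.54 for the band, and Untrained 1 was the highest of the 4 sections in members and other spots alike. Mbp, a gene of the myelin sheath, was at 9.69, 13.5, 13.8 and 8.32 against 18.7, 33.6, 19.2 and 20.5 (mean log2 ratio -1.01 ± 0.39), and 7 of the 9 oligodendrocyte markers with at least 10 member UMIs were lower in 4 of 4 sections, against 9.61% of all genes. App, Uchl1, Tuba1b, Atp6v0c, Snrpn and 2900097C17Rik were also among the 10 lowest, with mean log2 ratios from -0.41 to -0.81.

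Markers of other cell types were checked as whole lists. The thalamus list of 5 genes summed to 0.786 to 1.68 UMIs per 10000 in the members against 4.37 to 7.92, the interneuron list of 7 genes to 7.72 to 9.91 against 11.3 to 15.8, and the choroid plexus list of 6 genes to 53.6, 2.88, 13.4 and 23.4 against 60.5, 8.03, 27.9 and 58.3. In the band alone the choroid plexus list was at 72.6 in Trained 1, above the other spots, and at 2.54, 11.9 and 24.1 in the rest. Ttr, the transthyretin gene of the choroid plexus, was at 49.8, 1.44, 11.1 and 21.0 in the members, and its part in the other values was not tested. The list of 5 CA1 pyramidal genes summed to 0.960, 0.901, 2.69 and 1.37 against 2.27, 2.04, 2.62 and 2.54, and that of 5 CA3 pyramidal genes to 1.83, 1.26, 1.34 and 2.32 against 2.17, 2.998, 2.24 and 2.09. In the band alone the CA1 list was at 0.529, 0.507, 1.69 and 0.990, lower than in the other spots in 4 of 4 sections, and the CA3 list at 2.25, 1.27, 1.13 and 2.28, lower in Trained 2 and Untrained 1. Astrocyte markers (10 genes) were at 22.4, 36.2, 23.2 and 20.8 against 21.9, 23.01, 24.6 and 23.95, above the other spots in Trained 2 most of all, and the 13 genes of the mitochondrial genome were also highest in Trained 2, at 1358 against 680. The microglia (9 genes), blood (4 genes) and endothelium (6 genes) lists were also above the other spots in Trained 2, at 8.65 against 5.41, 11.7 against 4.48 and 3.61 against 2.68, while the blood and endothelium lists of all members were below them in the other 3 sections. In the band alone the endothelium list was at 2.26 in Untrained 1, above the 2.12 of the other spots. The part of these lists in the values of Trained 2 was not tested. In bulk spots fewer cells of a type and less RNA per cell cannot be told apart.

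The 22 genes of the neurogenesis list summed to 9.43, 11.7, 21.8 and 11.5 in the members against 17.5, 18.6, 16.6 and 17.6, lower in 3 sections and higher in Untrained 1, where the band was at 16.9 and the 7 members outside it at 28.98. Of these genes 5 had at least 10 member UMIs and 7 had none. Dcx, doublecortin, the usual marker of immature granule cells, was found in 0 of 102 member spots, that is 0 of 35, 22, 15 and 30 by section, which by the limit of 3 counts allows shares of up to 8.57%, 13.6%, 20% and 10%. Of the other spots 2.44% to 3.63% held a UMI of it, within these limits, so that a lower share in the members was not detectable within a section. Hopx, a homeobox gene of quiescent neural stem cells and astrocytes, was at 0.873, 1.98, 2.01 and 1.37 against 0.461, 0.650, 0.321 and 0.601. Stmn1 was at 4.63, 6.13, 10.1 and 6.002 against 10.2, 11.1, 10.2 and 10.9, and the axon growth gene Gap43 at 1.05, 1.98, 1.68 and 1.46 against 3.54, 3.29, 3.32 and 3.47. The neurite growth and differentiation list as a whole had a mean log2 ratio of -0.17 ± 0.08.

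Immediate early genes did not move as 1 group in the members. The list of 33 genes summed to 16.4, 19.8, 14.8 and 16.5 in the members against 19.4, 22.4, 13.9 and 22.2, and to 14.4, 11.9, 14.1 and 15.6 in the band alone. Of its 17 genes with at least 10 member UMIs none was higher and 1 was lower in 4 of 4 sections, against 12.8% and 9.61% of all genes. Arc was at 0.611, 1.44, 0.671 and 0.6002 against 1.41, 1.35, 0.511 and 1.38, and at 0.397, 0.761, 0.565 and 0.495 in the band alone, lower than in the other spots in 3 of 4 sections. Egr1 was at 0.698, 0.901, 1.68 and 1.11 against 1.97, 2.46, 1.04 and 2.58. Fos had 10 member UMIs and Npas4 had 1. Jun, counted among the granule cell genes, was at 1.83, 1.26, 1.01 and 2.23 against 0.583, 0.579, 0.749 and 0.626, higher in 4 of 4 sections.

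The spots around the band were not chosen by the rule, and their levels show how far the pattern reached. Spots at 1 step from the band numbered 48, 46, 30 and 61. Stxbp6 was at 2.91, 1.78, 3.39 and 2.18 UMIs per 10000 in the band, at 2.61, 1.76, 3.08 and 1.78 at 1 step, and at 0.560, 0.527, 0.601 and 0.631 at 8 or more steps. Ddn was at 9.52, 14.97, 14.7 and 11.1 in the band, 8.54, 12.95, 10.6 and 11.8 at 1 step, and 2.65, 1.89, 3.71 and 3.76 far away. Spots at 1 step were thus 2.83- to 5.13-fold above the far spots for Stxbp6, 3.10- to 4.40-fold for Neurod2 and 2.85- to 6.85-fold for Ddn. At 3 to 4 steps Stxbp6 was at 1.03, 0.522, 0.699 and 0.277, above the far spots in Trained 1 and Untrained 1 and below them in the other sections.

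**Figure D4:**
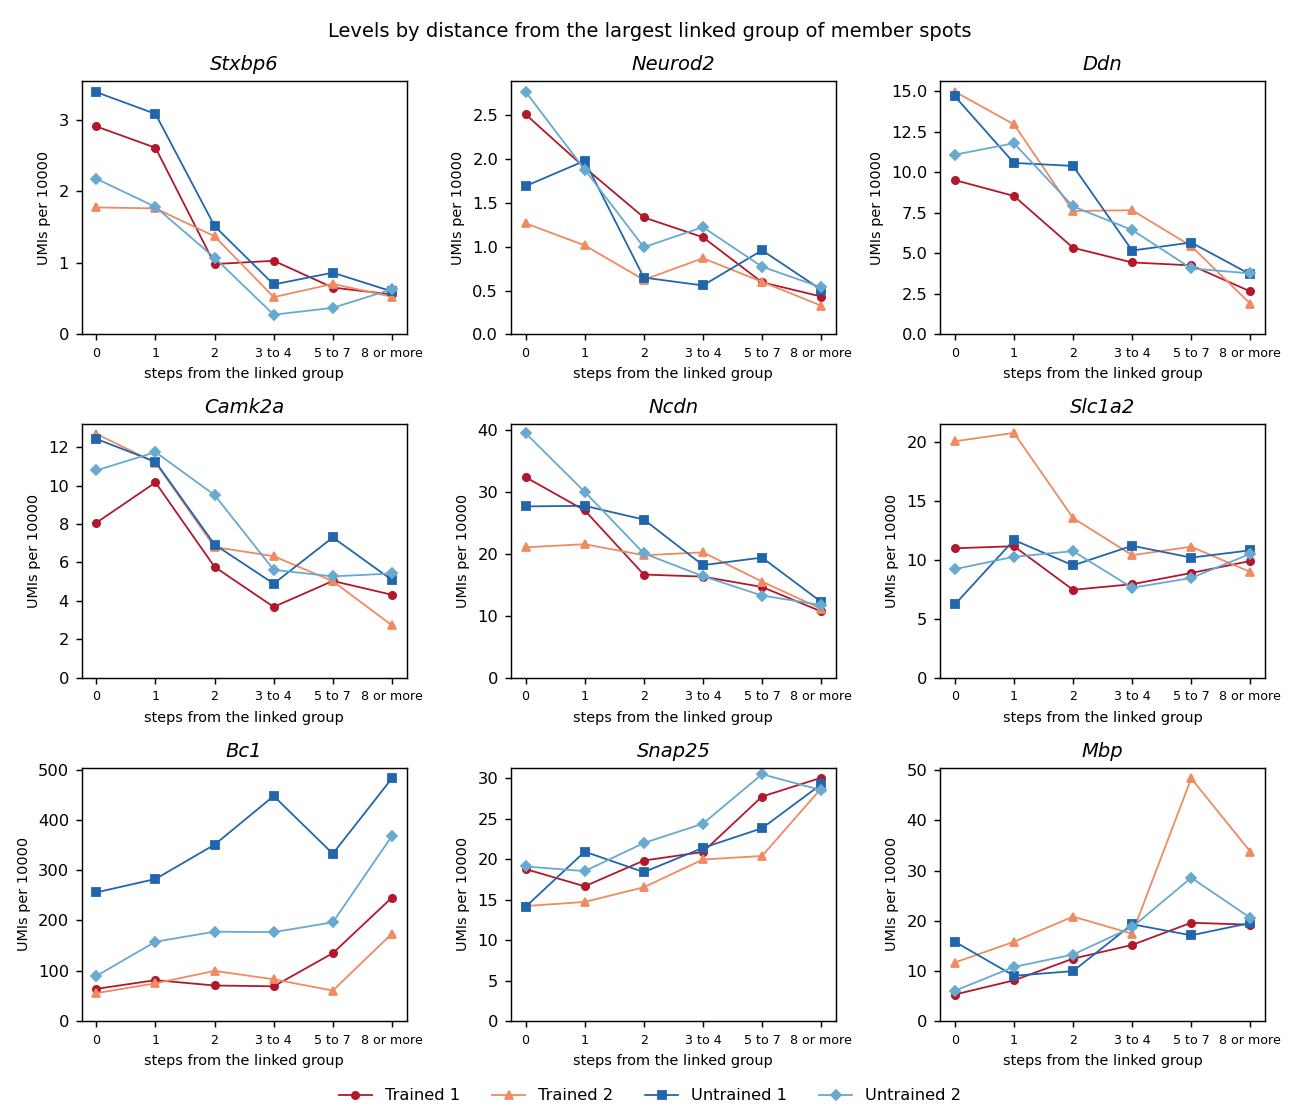
Level in UMIs per 10000 (y axis, from 0) against distance in spot steps from the largest linked group of members (x axis), for 9 genes and the 4 sections. Stxbp6, Neurod2, Ddn, Camk2a and Ncdn are lower at 8 or more steps than in the band in each section, though not at every step between, Bc1, Snap25 and Mbp are higher at 8 or more steps than in the band, and Slc1a2 is high near the band in Trained 2 alone.

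Other genes were higher far from the band. Snap25 went from 18.8, 14.2, 14.1 and 19.1 in the band to 30.1, 28.7, 29.2 and 28.5 at 8 or more steps, and Bc1 from 64.0, 55.6, 256 and 89.7 to 245, 174, 483 and 368. Mbp was 1.24- to 3.63-fold higher far from the band than in it. Bc1 had a lower level at 1 step, at 81.3, 75.0, 282 and 158, than at 8 or more steps in each section. Egr1 was at 0.264, 0.507, 1.13 and 0.990 in the band and at 2.10, 2.58, 1.07 and 2.74 at 8 or more steps, lower in the band in 3 of 4 sections. Slc1a2, a glutamate transporter of astrocytes, was at 20.04 in the band of Trained 2 and at 6.21 to 10.97 in the others. Ttr was at 550 at 2 steps from the band of Trained 1 and at 5.37 to 89.4 at that distance in the others.

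For comparison, 145 spots were chosen by the same form of rule from the CA1 genes Wfs1, Fibcd1 and Pou3f1, so their levels are again a description, and their place on the sections was not checked. Adcy1 was at 12.2, 11.9, 13.6 and 13.6 in the dentate band against 3.70, 3.40, 4.55 and 2.75 in these spots, and Nptx1 at 5.29, 3.81, 5.08 and 5.84 against 1.17, 1.53, 1.44 and 1.45. Both genes were higher in the band in 4 of 4 sections. Hpca was higher in the spots chosen by CA1 genes, at 16.1, 16.4, 12.9 and 15.8 against 9.12, 6.34, 8.47 and 8.61 in the band, and so was Bc1, at 187, 277, 442 and 245 against 64.0, 55.6, 256 and 89.7. Nrgn had no such order, with 31.2, 16.5, 18.6 and 25.8 in the band and 25.3, 18.7, 26.8 and 23.4 in the spots chosen by CA1 genes. The granule cell list summed to 54.7, 46.3, 56.3 and 50.5 in the spots chosen by CA1 genes, below the band in 4 of 4 sections but above all spots that were not members, which were at 34.9, 28.7, 38.5 and 37.9. The postsynaptic density list was at 78.1, 75.2, 80.2 and 79.6 there, above the 47.8, 42.9, 54.1 and 53.6 of the spots that were not members. It was below the 87.7, 79.9, 98.3 and 94.3 of the band in 4 of 4 sections. All members were at 82.0, 73.2, 82.3 and 90.4, which in Trained 2 was below the spots chosen by CA1 genes. The glutamate receptor list was at 27.2, 30.1, 23.95 and 26.5 in the spots chosen by CA1 genes and at 28.2, 26.4, 31.6 and 28.2 in the band, lower in the band in Trained 2. All members were at 26.7, 23.4, 25.9 and 26.6. This was below the spots chosen by CA1 genes in both trained sections and almost level with them in Untrained 2. Lists that were low in the members were low in the spots chosen by CA1 genes too. The synaptic vesicle list was at 163, 135, 150 and 153 there, against 166, 163, 175 and 168 in the spots that were not members. The oligodendrocyte list was at 27.8, 45.0, 39.3 and 36.9 against 42.6, 73.5, 44.6 and 47.4. The interneuron and thalamus lists were also lower there in each section. Spots chosen in the same way from the CA3 genes Bok, Iyd, Grik4 and Cpne4 held thalamus markers at 13.9 to 26.6, against 4.37 to 7.92 in all spots that were not members, and were therefore not used as CA3.

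Trained and untrained sections were compared by edgeR's quasi-likelihood test on the member UMIs summed per section. None of 1873 genes tested passed an adjusted p of 0.05, a background of 0.0% called, and 67 had an unadjusted p below 0.05. DESeq2 and limma-voom on the same sums also called 0 genes, with 4 and 173 at an unadjusted p below 0.05. The levels of the 2 trained and the 2 untrained sections did not overlap for 33.2% of the genes tested. Without any effect of training, 2 against 2 gives this with a probability of 0.3333 for a gene. By the edgeR test no gene was called as changed with training in these spots, and with 2 sections per group the samples' number limits what it could find.

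The gene with the smallest p was AC149090.1, whose level in the 2 trained and then the 2 untrained sections was 6.72, 4.15, 1.01 and 2.92, or 77, 23, 3 and 34 UMIs (log2 change 1.29 ± 0.35 SE, adjusted p = 0.9998). Its level in the other spots was 3.24, 2.35, 1.47 and 1.34, also higher in both trained sections. Mgat3, a glycosyltransferase gene, had 26, 7, 2 and 4 UMIs (log2 change 2.21 ± 0.63), and Cenpb, a centromere protein gene, had 17, 7, 1 and 2 (2.73 ± 0.87). For these genes the trained sections were higher, but on very few molecules. Uqcr10, a subunit of respiratory complex III, was at 6.11, 7.21, 2.69 and 3.94, and Ndufv2, a subunit of complex I, was at 2.53, 0.901, 5.37 and 4.03. Among the 10 with the smallest p were also Plekhb1, Ctbp1, Selenop and Hbb-bs, with log2 changes of 1.70, 1.27, 1.17 and 1.37. The hemoglobin gene Hbb-bs was at 7.21 in Trained 2 and at 2.09, 3.36 and 1.11 in the others, and the groups overlapped.

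Genes that set the layer apart did not pass the test either. Adcy1 and Ddn had log2 changes of -0.14 ± 0.28 and 0.03 ± 0.29 (SE). Bc1 was at 98.9 and 125 in the trained sections and at 324 and 128 in the untrained ones (log2 change -0.96 ± 0.54, adjusted p = 0.9998), and Untrained 2 lay close to Trained 2. The other spots of Untrained 1 were also the highest in Bc1. Of the 20 granule cell genes tested, 6 were higher and 14 lower, with a median log2 change of -0.16 against 0.02 for all genes, and 0 were called. This median was 0.09 without Trained 2 and 0.13 without Untrained 2.

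**Figure D5:**
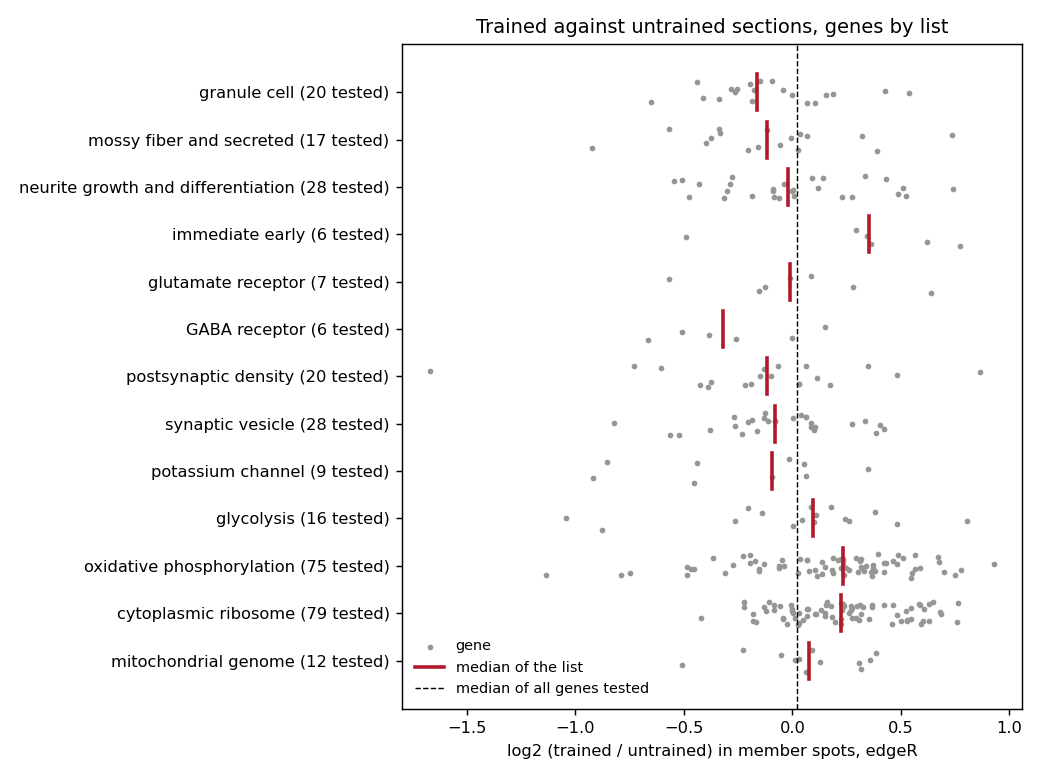
Log2 change between trained and untrained sections in member spots (x axis), 1 grey point per gene tested, by gene list, with the number of genes tested. Red bars are list medians and the dashed line is the median of all genes, 0.02. The bars of the ribosome (0.23) and oxidative phosphorylation (0.23) lists lie right of the line with wide overlap, and no gene passed the test.

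No gene of the lists for translation and energy supply was called. Of 79 cytoplasmic ribosome genes tested, 61 had a higher and 18 a lower estimate in trained sections, with a median log2 change of 0.23 and 10 at an unadjusted p below 0.05. Among all 1873 genes tested, 973 had a higher and 900 a lower estimate, and 67 were at an unadjusted p below 0.05. The list summed to 584, 595, 487 and 532 UMIs per 10000 in the members and to 538, 538, 446 and 517 in the other spots, so both trained sections were above both untrained ones in the other spots as well. Of 75 oxidative phosphorylation genes, 54 had a higher and 21 a lower estimate (72% higher, against 51.9% of all genes tested), with a median of 0.23, and the sums were 373, 415, 336 and 364 in the members and 416, 490, 339 and 386 in the other spots. The exact permutation p of both sums over sections was 0.3333, the smallest that 2 against 2 allows. Of the 33 single values compared in this way, 9 had this p. The 12 mitochondrial genome genes tested had a median of 0.08, with sums of 1010, 1358, 1279 and 878.

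The lists tied to plasticity gave no call. Of 33 immediate early genes 6 had enough UMIs to test, 5 with a higher and 1 with a lower estimate. Egr3, the member with the highest estimate, had 17, 9, 1 and 13 UMIs. Of 28 neurite growth and differentiation genes tested 13 had higher and 15 lower estimates, with a median of -0.02. The glutamate receptor (7 tested), postsynaptic density (20 tested), synaptic vesicle (28 tested) and potassium channel (9 tested) lists had medians of -0.01, -0.12, -0.08 and -0.09, and the GABA receptor list (6 tested) had -0.32, beside the 0.02 of all genes. Under the alternatives and with 1 section left out, the medians of the glutamate receptor, postsynaptic density, synaptic vesicle and neurite growth lists changed sign, as did that of the immediate early list (0.35 with all sections, -0.16 without Trained 2), while those of the potassium channel and GABA receptor lists did not.

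Whether training had another effect in the member spots than in the rest of the section was tested by an interaction term, fitted to the member sum and the other-spot sum of each section with section as the blocking factor. None of 11989 genes passed, a background of 0.0% called, with 273 at an unadjusted p below 0.05, and DESeq2 and limma-voom called 0 with 65 and 463. The smallest p values belonged to Cenpb (log2 difference 2.90 ± 0.79 SE, adjusted p = 1), Hbb-bs (1.46 ± 0.40), Mgat3 (2.21 ± 0.64) and Ndufv2 (-1.21 ± 0.38). The fifth, Smc1a, a cohesin gene, had 10 member UMIs, all in trained sections, and no fold is given for it. For Bc1 the log2 difference was 0.39 ± 0.48. The member and the other sum of a section come from the same mouse.

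Gt(ROSA)26Sor is the transcript of the locus that carries the eYFP reporter. The paper takes it as the eYFP transcript, while the annotation lists it as an antisense gene of the genome. Whether spots with a UMI of it hold tagged cells was not tested. A UMI of it was found in 9 of 35, 4 of 22, 0 of 15 and 15 of 30 member spots, that is 25.7%, 18.2%, 0 and 50.0% (exact binomial 95% intervals 12.5% to 43.3%, 5.19% to 40.3% and 31.3% to 68.7% for the 3 sections above 0), against 25.6%, 31.6%, 2.49% and 38.04% of the other spots. By the limit of 3 counts used for a count of 0, the 0 of 15 allows a share of up to 20%. After each spot was thinned to 500 UMIs the shares were 5.71%, 4.55%, 0 and 0 in the members and 6.47%, 6.02%, 0.775% and 9.69% in the other spots, and the exact permutation p over the members' shares was 0.3333. The trained shares were 2 of 35 and 1 of 22 spots. The limit of 3 counts allows up to 20% and 10% for the thinned 0 of 15 and 0 of 30, above both trained shares. Untrained 1 stood apart from the other 3 sections in all of its spots, and without thinning the trained and untrained shares of the members overlapped (exact permutation p = 1). Arc itself was found in 20%, 22.7%, 13.3% and 20% of the member spots, against 24.9%, 25.9%, 8.69% and 23.5% of the other spots. These intervals cover counting error only.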

How the data were processed

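Spatial gene expression was measured in 1 section from each of 4 mice. The authors deposited UMI counts per gene and spot without normalization. The methods name bcl2fastq2 v2.20, TrimGalore v0.6.5 and Space Ranger v2.0.0 with the mm10 reference, the file headers name Space Ranger 1.2.2, and the submitters' processing notes list Cell Ranger 8, STAR and mm39. Spot positions were used as array coordinates. Levels are UMIs per 10000 of the summed spots of a section. Member sums were tested by the quasi-likelihood F test of edgeR 4.0.16 after its filter on low counts and TMM scaling, with p-values adjusted by Benjamini-Hochberg (threshold 0.05), and checked on simulated counts, with DESeq2 1.42.0 and limma 3.58.1 as alternatives. Single values were compared by a two-sided exact permutation test over sections. Lists were written by hand. The genes named are the 4 markers, the 15 highest and 10 lowest against other spots, the 10 and 5 smallest p of the tests, up to 4 of each list with the most UMIs, 13 fixed genes and 5 whose level followed the score most (Spearman's rho at most 0.05, too weak to describe). Others are named as list members with their values or as chosen afterwards. The members and lists were chosen with earlier results of these data known. Section images were not used. Some genes that the rule names are not reported here.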

Additional observations from a re-analysis of the deposited data

How the results depend on the processing

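The number of genes called between trained and untrained sections stayed at 0 under DESeq2, limma-voom, no filter on low counts, abundant genes left out, sums thinned to the smallest section, members from the top 2% or 5%, spots of at least 1000 UMIs, and isolated members left out, and with 2 choices made after seeing the data, the top 3% filled from spots with 2 marker UMIs and the band alone. With 1 section left out it ran from 0 to 4: 2 without Trained 1 (Ttr, log2 -3.46, against 0.69 with all sections, and Hbb-bs, 2.22) and 4 without Trained 2 (Pmch, Mgat3, Ttr at 1.58 and AC149090.1). A lone section was assumed to vary like the others. For the difference from other spots it ran from 0 to 1, Hbb-bs without Trained 1. Same-numbered sections did not deviate together (r = -0.08 over 1873 genes), and the fit with the replicate number as a block called 0 genes. A rank-sum test over single member spots, on log levels of the 1873 genes, called 0 genes (148 at an unadjusted p below 0.05). Its spots share 2 mice per group. The paper ran its rank-sum test after another normalization on its own annotated dentate gyrus spots, and reports differentially expressed genes there. The outcome here is thus not a repeat of the paper's test. The cause of the changes with a section left out was not tested. Over 7 alternatives each, the 25 ratios to other spots gave 175 values, of which 33 moved by more than the spread between sections and 0 changed sign. These genes were picked for the same sign in 4 of 4 sections, and the alternatives share many spots with the main choice. That 0 changed sign was thus largely set by how they were picked. Over the alternatives of the tests, sections left out included (220 values), the median of the granule cell list ran from -0.47 (without Trained 1) to 0.13 (without Untrained 2), and 10 of 14 list medians changed sign in at least 1 alternative, all but those of the ribosome, oxidative phosphorylation, potassium channel and GABA receptor lists. Of 15 single genes followed between trained and untrained sections, 5 changed sign in at least 1 alternative. For the difference from other spots 1 of 5 genes did. Few members and, in Untrained 1, few UMIs limit every value.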
